A study of Mus musculus with 6 samples.

Results

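The 10 genes described here form the mouse pathway that makes, activates, moves, releases and breaks down sialic acid, together with the aminosugar enzymes next to it, and were taken by name from a table of 54532 genes. They were Gne, Nans, Nanp, Cmas, Slc35a1, Slc17a5, Neu1, Npl, Renbp and Nagk. The list was drawn up after a fit of these same libraries had called Neu1 and Renbp, so the differences between the groups among the 10 genes are given as a description and without p-values. The pathway was measured by messenger RNA sequencing in 32D cells, a mouse myeloblast-like line grown in medium with interleukin-3. The S34F group held 3 libraries of cells transduced with the retrovirus MSCV-IRES-GFP carrying human U2AF1 with the S34F substitution, a change in an RNA-binding zinc finger of this splicing factor that recurs in myeloid malignancy. The WT group held 3 libraries of cells transduced with the same vector carrying wild-type human U2AF1. Both groups therefore keep the mouse gene U2af1 and add a human copy driven by a retroviral promoter, and the labels do not say whether the cells were cloned or came from separate cultures. What p-values capture is then library-to-library spread, part of which may be technical.

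Sialic acids are acidic sugars that cap the glycans of the cell surface and of secreted proteins, and in myeloid cells they affect adhesion, receptor signalling and the binding of Siglec receptors. Cells make them in the cytosol from UDP-N-acetylglucosamine, activate them with CMP in the nucleus, and carry the product into the Golgi, where sialyltransferases attach it. In lysosomes a sialidase releases sialic acid from old glycoproteins, an exporter returns it to the cytosol, and a lyase and an epimerase can turn it back into N-acetylglucosamine, which is phosphorylated and used again or burned in glycolysis.

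Library totals lay between 16509899 and 19129250 counts. A value is given as CPM, counts scaled to library size with TMM factors, where genes are compared between libraries, and as TPM, which also divides by the exon length of GENCODE release M21, where genes are compared with each other. At this depth 3 counts, the limit that a count of 0 allows, equalled 0.156 to 0.182 CPM, for counting error only. WT replicates 2 and 3 stood closer together than any other pair, with a biological coefficient of variation of 3.16%, where the remaining within-group pairs had 16.5% to 21.5%, so results are also given with both summed into 1 library. U2af1 had 57.3 to 91.9 CPM in S34F libraries and 56.9 to 97.9 CPM in WT libraries, which does not check the labels because gene counts do not show the allele. Of 10 progenitor markers, Csf2rb, Ptprc, Ctsg, Il3ra, Prtn3 and Mpo had mean levels of 11.5 to 722 CPM in S34F cells and 9.47 to 594 CPM in WT cells. Kit, Cd34 and Elane were nearly absent, with 0, 9 and 8 counts over S34F and 3, 14 and 11 over WT, and Ms4a3 had 1.88 CPM in S34F cells and 0.448 CPM in WT cells.

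Of the 10 genes, 8 passed the filter on low counts and were fitted. The edgeR quasi-likelihood test over all 13444 genes (Benjamini-Hochberg adjusted p under 0.05) called 2 of the 8 higher in S34F cells, Neu1 and Renbp, and none lower. Over all genes it called 1.58% higher and 0.595% lower, 213 and 80 genes. That total of 293 depended on most single libraries. Leaving out S34F replicate 1 gave 20, S34F replicate 2 gave 337 and S34F replicate 3 gave 50. Leaving out WT replicate 1 gave 1177, WT replicate 2 gave 19 and WT replicate 3 gave 22. Since this contrast was used to choose the list, nothing is read from the count of members called. The count of members called was 2 under all 16 alternatives.

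**Figure D1:**
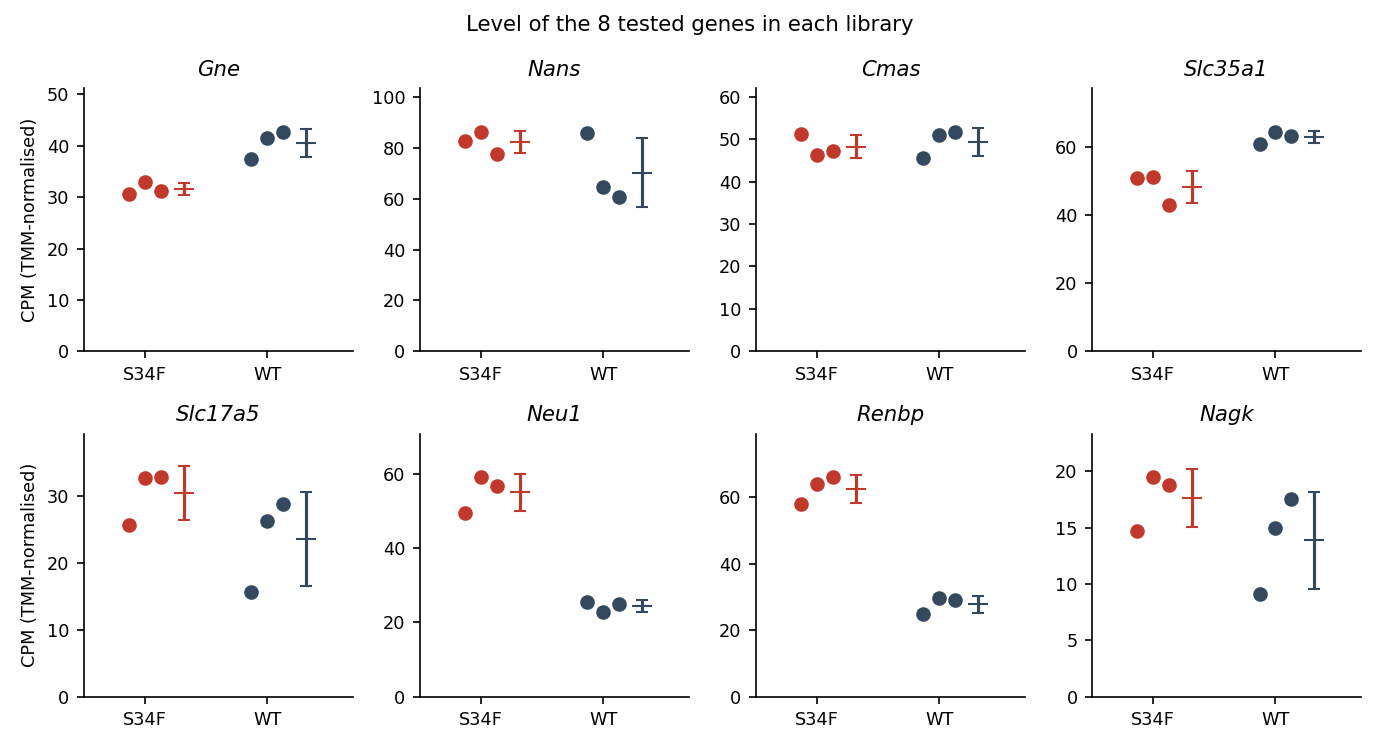
Level of each of the 8 fitted genes in CPM (vertical axes, from 0) in the 3 S34F libraries (red) and the 3 WT libraries (dark), with the mean and SD beside the points. For Neu1 and Renbp every S34F point lies above every WT point, for Gne and Slc35a1 every S34F point lies below, and the other 4 genes overlap.

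Gne encodes the bifunctional epimerase and kinase that starts the pathway by making N-acetylmannosamine phosphate and limits its rate (ENSMUSG00000028479, chromosome 4, 44034075 to 44084177, minus strand, mm10). It reached 30.5, 32.9 and 31.3 CPM in S34F replicates 1 to 3, against 37.4, 41.5 and 42.7 CPM in WT replicates 1 to 3. All S34F libraries lay below all WT libraries. The fitted log2 fold change was -0.36 ± 0.12 (SE, n = 3 each), and the gene was not called.

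Nans encodes sialic acid synthase, which joins N-acetylmannosamine phosphate to phosphoenolpyruvate (ENSMUSG00000028334, chromosome 4, 46489248 to 46503632, plus strand). It had 82.8, 86.1 and 77.5 CPM in S34F replicates 1 to 3, against 85.6, 64.4 and 60.7 CPM in WT replicates 1 to 3. WT replicate 1 lay among the S34F libraries, and WT replicates 2 and 3 were lower, so the groups overlapped. The log2 fold change was 0.23 ± 0.14 (SE, n = 3 each). Exons of Trim14 on the opposite strand cover 29.6% of the exon bases of Nans. Trim14 was assigned 809 counts over all 6 libraries, and Nans 4420 over S34F and 3624 over WT, and the part of the overlap in these values was not tested.

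Nanp, the phosphatase that frees sialic acid from its phosphate, was close to the detection limit (ENSMUSG00000053916, chromosome 2, 151029685 to 151039398, minus strand). It held 5, 8 and 31 counts in S34F replicates 1 to 3, against 13, 2 and 2 counts in WT replicates 1 to 3. S34F replicate 3 alone held more than all WT libraries together, while the other S34F libraries lay below WT replicate 1. The gene did not pass the filter, and no fold change is given.

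Cmas, the enzyme that couples sialic acid to CMP in the nucleus, differed little between the groups (ENSMUSG00000030282, chromosome 6, 142756686 to 142775714, plus strand). It had 51.2, 46.3 and 47.1 CPM in S34F replicates 1 to 3, against 45.6, 51.0 and 51.6 CPM in WT replicates 1 to 3. The ranges overlapped almost completely, and the log2 fold change of -0.03 ± 0.11 (SE, n = 3 each) was smaller than its standard error.

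Slc35a1, which carries CMP-sialic acid into the Golgi, followed the same direction as Gne (ENSMUSG00000028293, chromosome 4, 34663257 to 34687438, minus strand). It reached 50.8, 51.3 and 43.0 CPM in S34F replicates 1 to 3, against 60.9, 64.4 and 63.4 CPM in WT replicates 1 to 3. Every S34F library lay below every WT library, with S34F replicate 3 lowest. The log2 fold change was -0.38 ± 0.11 (SE, n = 3 each), and the gene was not called. Gne and Slc35a1 were thus 2 of the 8 fitted genes with all S34F libraries below all WT libraries, an arrangement seen in 13.1% of all genes tested, and Neu1 and Renbp were the 2 with all S34F libraries above, seen in 14.0%.

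Neu1 encodes the lysosomal sialidase, which cleaves sialic acid from glycoproteins and glycolipids and is active only in a complex with cathepsin A (ENSMUSG00000007038, chromosome 17, 34931253 to 34935953, plus strand). It reached 49.5, 59.0 and 56.7 CPM in S34F replicates 1 to 3, against 25.6, 22.7 and 25.0 CPM in WT replicates 1 to 3. The lowest S34F library stood 1.93 times above the highest WT library. The means were 55.1 ± 4.97 CPM in S34F cells and 24.4 ± 1.51 CPM in WT cells (SD, n = 3 each), and the log2 fold change was 1.17 ± 0.12 (SE). Across all 16 alternatives it lay between 1.06 and 1.24.

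Slc17a5 encodes sialin, which exports free sialic acid from the lysosome (ENSMUSG00000049624, chromosome 9, 78536488 to 78588041, minus strand). It had 25.7, 32.8 and 32.8 CPM in S34F replicates 1 to 3, against 15.6, 26.2 and 28.9 CPM in WT replicates 1 to 3. WT replicate 1 was the lowest library, and the other WT libraries lay within the S34F range. The log2 fold change was 0.37 ± 0.23 (SE, n = 3 each), and it was 0.15 without WT replicate 1.

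Npl, the lyase that splits sialic acid into N-acetylmannosamine and pyruvate, was counted at 0 in all 6 libraries (ENSMUSG00000042684, chromosome 1, 153503015 to 153550045, minus strand). A count of 0 allows up to 0.156 to 0.179 CPM in the S34F libraries and 0.162 to 0.182 CPM in the WT libraries. The lyase step that lies between Slc17a5 and Renbp was therefore not detectable in either group at this depth, although the genes on both sides of it were well counted.

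Renbp encodes renin-binding protein, the epimerase that interconverts N-acetylmannosamine and N-acetylglucosamine (ENSMUSG00000031387, chromosome X, 73922121 to 73930850, minus strand). It reached 57.8, 63.9 and 65.9 CPM in S34F replicates 1 to 3, against 24.9, 29.6 and 28.9 CPM in WT replicates 1 to 3. The lowest S34F library stood 1.96 times above the highest WT library. The means were 62.5 ± 4.18 CPM in S34F cells and 27.8 ± 2.55 CPM in WT cells (SD, n = 3 each), and the log2 fold change was 1.17 ± 0.12 (SE). It lay between 1.06 and 1.22 across the 16 alternatives.

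Nagk encodes N-acetylglucosamine kinase, which phosphorylates the sugar that Renbp yields (ENSMUSG00000034744, chromosome 6, 83794982 to 83804018, plus strand). It had 14.7, 19.4 and 18.8 CPM in S34F replicates 1 to 3, against 9.12, 15.0 and 17.5 CPM in WT replicates 1 to 3. The groups overlapped, with WT replicate 1 again the lowest library. The log2 fold change was 0.35 ± 0.24 (SE, n = 3 each), and it was 0.12 without WT replicate 1.

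**Figure D2:**
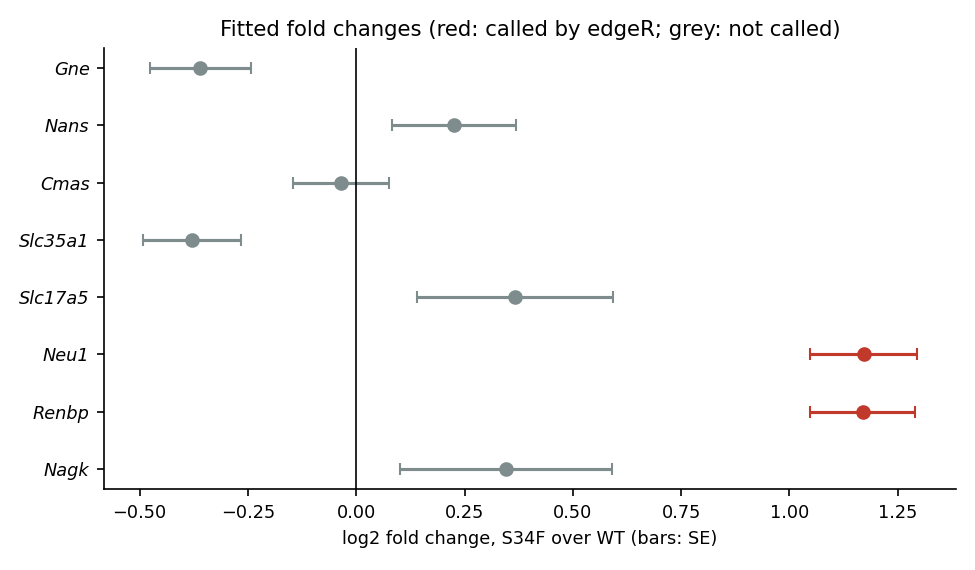
Fitted log2 fold change of the 8 genes, S34F over WT (horizontal axis), with its standard error as bars and the genes in pathway order from top to bottom. Neu1 and Renbp, in red, lie at 1.17, Gne and Slc35a1 lie at -0.36 and -0.38, and the other 4 lie between -0.03 and 0.37.

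GC content, which can affect how well a transcript is recovered, differed among the genes. The longest transcript held 53.2% GC in Neu1 and 53.1% in Renbp, against 44.2% in Slc35a1 and 49.7% in Gne. With each library's GC trend removed the log2 fold changes were 1.06 for Neu1, 1.06 for Renbp, -0.30 for Slc35a1 and -0.37 for Gne.

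Marker genes of later myeloid stages and of other cell types were summed in each library. The summed level of 10 later neutrophil markers was 399 to 695 CPM in S34F libraries, against 97.1 to 126 CPM in WT libraries. Lcn2, the gene of lipocalin 2, made up most of it, with a mean of 560.2 CPM in S34F cells and 87.3 CPM in WT cells. Of the 5 fitted genes only Lcn2 was called, while Retnlg was at 0 and Ltf and Camp totalled 9 and 8 counts over S34F and 5 and 8 over WT. The sum of 10 macrophage and monocyte markers was 451 to 1205 CPM in S34F libraries and 342 to 451 CPM in WT libraries, so that the groups almost met. Lyz2, the lysozyme gene, had 617 CPM in S34F cells and 145 CPM in WT cells and was not called. It made up the greater part of the difference in that sum. The other fitted genes of this list were also higher in S34F cells. Csf1r had 18.6 CPM in S34F and 6.85 CPM in WT cells, Cd68 32.2 and 11.7, and Adgre1 245 and 217. Of the 4 fitted genes edgeR called 0, DESeq2 2 and limma-voom 1, and 3 had an unadjusted p under 0.05. C1qa, C1qb and Ly6c2 were at 0. Mrc1, C1qc and Cx3cr1 had 21, 7 and 10 counts over S34F and 19, 12 and 12 over WT. In the lists other than later neutrophils edgeR called 0 of 19 fitted markers, DESeq2 6 and limma-voom 2, with 8 under 0.05 by unadjusted p. Over all genes DESeq2 called 10.0% of those it gave an adjusted p, limma-voom called 2.01%, and 22.0% had an unadjusted edgeR p under 0.05, in either direction. The sums in S34F and WT libraries were 1533 to 1866 and 1268 to 1500 CPM for progenitor markers and 436 to 535 and 402 to 479 CPM for mast and basophil markers. They were 747 to 873 and 584 to 615 CPM for erythroid and megakaryocyte markers, and 168 to 234 and 219.6 to 271 CPM for fibroblast and endothelial markers. Lymphoid markers summed to at most 0.282 CPM in S34F libraries and 0.304 CPM in WT libraries. The part of such cell states in the values of the 10 genes was not tested, and in bulk libraries fewer cells of a type and less RNA per cell cannot be told apart.

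The promoters of Neu1 and Renbp are shown because these are the called members, with that of Slc35a1, which was lower in every S34F library, for contrast. The 250 bases upstream of each RefSeq start site (GRCm38.p6) are given 5′ to 3′ on the gene's strand, at chr17:34931003-34931252 (plus), chrX:73930851-73931100 (minus) and chr4:34687439-34687688 (minus). Capitals mark matches, on either strand, to the GC box GGGCGG, the AP-1 site TGAGTCA, the PU.1 core GAGGAA and the TATA box TATAAA.
Neu1: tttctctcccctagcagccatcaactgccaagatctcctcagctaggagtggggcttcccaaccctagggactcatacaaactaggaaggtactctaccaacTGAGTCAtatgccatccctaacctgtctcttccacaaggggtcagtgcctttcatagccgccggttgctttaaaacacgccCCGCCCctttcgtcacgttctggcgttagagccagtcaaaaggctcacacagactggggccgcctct
Renbp: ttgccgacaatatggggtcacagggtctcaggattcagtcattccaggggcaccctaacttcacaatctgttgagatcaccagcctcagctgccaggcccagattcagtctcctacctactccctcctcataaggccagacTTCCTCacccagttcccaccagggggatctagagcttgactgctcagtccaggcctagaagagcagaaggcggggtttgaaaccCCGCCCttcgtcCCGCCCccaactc
Slc35a1: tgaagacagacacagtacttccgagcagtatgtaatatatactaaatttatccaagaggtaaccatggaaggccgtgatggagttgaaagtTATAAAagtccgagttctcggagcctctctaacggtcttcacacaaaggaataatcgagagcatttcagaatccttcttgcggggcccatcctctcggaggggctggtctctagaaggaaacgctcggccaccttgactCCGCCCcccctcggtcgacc
RefSeq windows were at hand for 8 of the 10 genes, 9 windows in all with 2 for Gne. A GC box was found in the windows of Neu1, Renbp, Slc35a1, Nagk and Slc17a5, and in 32.7% of all 32851 windows or 56.0% of those of the fitted genes. Neu1 held the AP-1 letters 148 bases before its start, as did 4.46% of all windows, and Renbp a PU.1 core 109 bases before its start, as did 23.2%. Cmas, which differed little between the groups, also held PU.1 cores, at 248 and 232 bases before its start. The TATA box of Slc35a1 lay 159 bases before its start and was present in 12.4% of all windows. The E-box letters CACGTG, bound by TFEB and related regulators of lysosomal genes, were found only in the window of Npl among these genes and in 6.02% of all windows, and CCAAT only in that of Slc17a5 and in 33.9%. No motif was shared by Neu1 and Renbp beyond the GC box, and a match describes letters, not a site of binding.

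Compared per exon length, the order of the genes differed between the groups at its top. In S34F cells Renbp had the highest level at 79.0 ± 7.77 TPM (SD, n = 3), followed by Slc35a1 at 66.4 ± 6.51 and Nans at 56.4 ± 3.98 TPM. Neu1 followed at 46.5 ± 5.82 TPM, Cmas at 32.2 ± 0.596, Slc17a5 at 26.5 ± 4.39, Gne at 15.7 ± 1.15, Nagk at 11.9 ± 2.12 and Nanp at 1.81 ± 1.86 TPM. This order was the same in all 3 S34F libraries, although the SDs of Renbp and Slc35a1, and those of Slc35a1 and Nans, overlapped.

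In WT cells Slc35a1 had the highest level at 92.7 ± 7.71 TPM (SD, n = 3), followed by Nans at 51.4 ± 6.75, Renbp at 37.7 ± 5.46 and Cmas at 35.5 ± 4.28 TPM. The next 3 could not be separated, with Slc17a5 at 22.2 ± 7.51, Neu1 at 22.1 ± 1.01 and Gne at 21.6 ± 2.61 TPM, and they changed places between WT libraries. Nagk had 10.1 ± 3.55 TPM and Nanp 0.736 ± 0.816 TPM. In WT, the neighbours Renbp and Cmas also differed by less than their spread. Renbp took 22.6, 23.1 and 24.8 percent of the summed TPM of the 10 genes in S34F replicates 1 to 3, against 11.8, 13.5 and 13.1 percent in WT replicates 1 to 3. Exon length was taken over all transcripts of a gene, which understates genes of which the cells use only short forms.

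**Figure D3:**
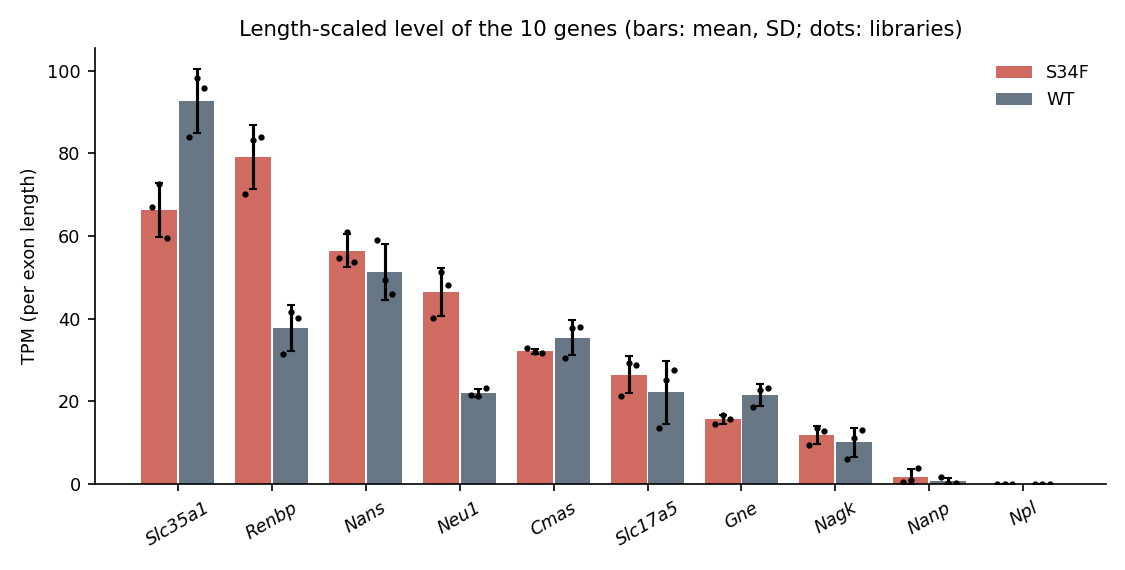
Level of the 10 genes in TPM, scaled by exon length (vertical axis, from 0), as the mean and SD of 3 S34F (red) and 3 WT (dark) libraries with each library as a dot. Renbp is the highest bar in S34F cells and Slc35a1 in WT cells, and Nanp and Npl lie at or near 0 in both.

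Ratios of counts within 1 library do not depend on how libraries are scaled, and the following pairs were chosen after their values had been seen. Renbp and Gne both encode epimerases. Gne makes N-acetylmannosamine phosphate, and Renbp interconverts N-acetylmannosamine and N-acetylglucosamine. Renbp over Gne was 1.89, 1.94 and 2.10 in S34F replicates 1 to 3, against 0.665, 0.712 and 0.678 in WT replicates 1 to 3. Neu1, which removes sialic acid, over Slc35a1, which supplies it to the Golgi, was 0.974, 1.15 and 1.32 in S34F replicates 1 to 3, against 0.420, 0.353 and 0.394 in WT replicates 1 to 3. Neither ratio overlapped between the groups. This had to be so, since Renbp and Neu1 were higher and Gne and Slc35a1 lower in every S34F library. It is therefore no further evidence. Neu1 over Renbp was 0.856, 0.924 and 0.860 in S34F replicates 1 to 3, against 1.03, 0.769 and 0.864 in WT replicates 1 to 3, and here the S34F values lay within the range of the WT values.

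**Figure D4:**
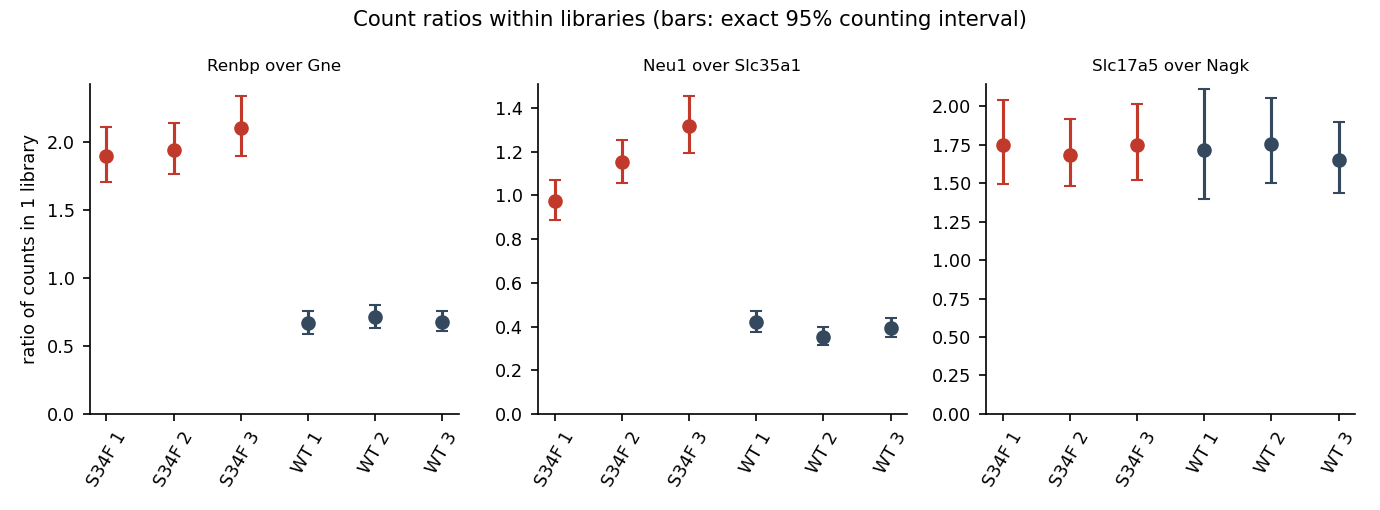
Ratio of counts of 2 genes within each library (vertical axes, from 0) for Renbp over Gne, Neu1 over Slc35a1 and Slc17a5 over Nagk, with exact 95% intervals for counting error. The S34F libraries (red) lie above the WT libraries (dark) in the left and middle panels, and all 6 lie between 1.65 and 1.75 in the right panel.

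The genes most like Neu1 across the 6 libraries were picked by the root mean square difference of log2 CPM deviations from the gene mean, among 11095 genes with at least 2 CPM. They were Cd82, a tetraspanin, at 0.0877, Cstb, the cysteine protease inhibitor cystatin B, at 0.0928, and the noncoding RNA Zfas1 at 0.112, on the log2 scale. Those most like Renbp were the acyl-CoA thioesterase gene Acot2 at 0.0805, Zfas1 at 0.0868 and the actin-capping gene Capg at 0.0921. Neu1 and Renbp ranked 6 in each other's order, at 0.127. Both had already been called in the contrast of these same libraries, so their likeness is not separate evidence. Cd82 had 58.0, 71.4 and 60.2 CPM in S34F replicates 1 to 3, against 33.0, 26.6 and 27.8 CPM in WT replicates 1 to 3.

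The pathway around the 10 genes was followed in 77 further genes in 7 lists, of which 55 could be fitted. Of these, 4 rose in S34F cells and 0 fell, where 1.58% of all genes rose and 0.595% fell, and their median log2 fold change was 0.21, against 5.2e-04 over all genes. All S34F libraries lay above all WT libraries for 21 of the 55 (14.0% of all genes) and below for 0 (13.1%). The 4 that rose were Hk3, Uap1l1, Gnpda1 and Cd33. The count was 2 without S34F replicate 1, 14 without WT replicate 1, 1 without WT replicate 2, 2 without WT replicate 3 and 2 with WT replicates 2 and 3 summed. The lists were drawn up with earlier results of these data known, the change of Hk3 among them. Counts here and in the single lists below are therefore a description, and nothing is read from them.

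Gnpda1 encodes an isomerase that turns glucosamine phosphate into fructose phosphate and ammonia, the step by which N-acetylglucosamine from sialic acid enters glycolysis. It reached 39.1, 48.3 and 53.6 CPM in S34F replicates 1 to 3, against 20.9, 23.3 and 28.0 CPM in WT replicates 1 to 3. The groups did not overlap, and the log2 fold change was 0.97 ± 0.16 (SE, n = 3 each, by edgeR with adjusted p = 0.0286). It did not pass in 5 of the 6 fits that left out a library, nor with WT replicates 2 and 3 summed, with adjusted p-values between 0.0504 and 0.131.

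Hk3, the hexokinase of myeloid cells, which phosphorylates glucose and can use glucosamine, had 9.42, 8.68 and 12.7 CPM in S34F replicates 1 to 3, against 1.82, 1.30 and 0.919 CPM in WT replicates 1 to 3. Its log2 fold change was 2.93 ± 0.31 (SE, n = 3 each, by edgeR with adjusted p = 0.00689), a change already known when the list was drawn up. Amdhd2, which removes the acetyl group from N-acetylglucosamine phosphate, had a log2 fold change of 0.46 ± 0.19 that did not pass (edgeR adjusted p = 0.203). In the list of aminosugar breakdown and salvage 2 of 7 genes rose (1.58% of all genes), 1 of them Hk3, and 5 did not pass. The median log2 fold change was 0.46.

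In hexosamine synthesis and O-GlcNAc cycling 1 of 7 fitted genes rose (1.58% of all genes), with a median log2 fold change of 0.11. Uap1l1, a paralogue of the pyrophosphorylase Uap1 that makes UDP-N-acetylglucosamine, had 61.2, 53.8 and 57.5 CPM in S34F replicates 1 to 3, against 28.2, 26.4 and 28.1 CPM in WT replicates 1 to 3. Its log2 fold change was 1.06 ± 0.11 (SE, n = 3 each, by edgeR with adjusted p = 0.00689), and without WT replicate 2 it did not pass (adjusted p = 0.0546). Gfpt1, the enzyme that opens the hexosamine pathway, had 90.3 ± 3.05 CPM in S34F cells and 96.4 ± 7.85 CPM in WT cells (SD, n = 3 each), a difference within the spread.

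The partners of Neu1 and other lysosomal exoglycosidases had no call among 14 fitted genes by edgeR, 4 calls by DESeq2 (10.0% of all genes) and 0 by limma-voom (2.01%), with 7 under 0.05 by unadjusted p (22.0%). Their log2 fold changes were positive in 13 of 14, as in 50.1% of all genes, with a median of 0.34, and 8 had all S34F libraries above all WT libraries (14.0% of all genes). Ctsa, the cathepsin A that holds Neu1 in its active complex, had 122, 117 and 148 CPM in S34F replicates 1 to 3, against 96.8, 88.5 and 84.0 CPM in WT replicates 1 to 3. Its log2 fold change was 0.52 ± 0.13 (SE, n = 3 each) and did not pass (edgeR adjusted p = 0.0695). It passed with no count filter, with DESeq2, with the replicate block and without WT replicate 1, at adjusted p-values between 0.00919 and 0.0363. Counts of Neu1 over those of Ctsa were 0.406, 0.504 and 0.382 in S34F replicates 1 to 3, against 0.265, 0.257 and 0.297 in WT replicates 1 to 3, without overlap. Since Neu1 had already been called in this contrast, the ratio is no further evidence.

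**Figure D5:**
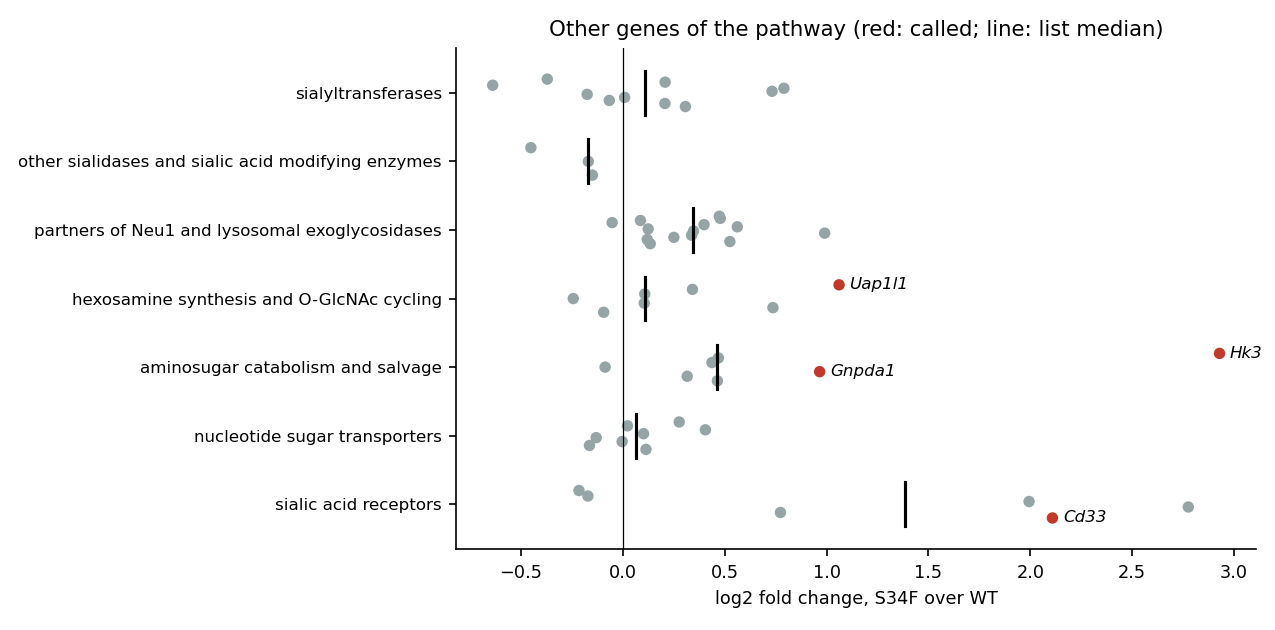
Log2 fold change, S34F over WT (horizontal axis), of the 55 fitted genes of the 7 lists, with called genes in red and named and the list median as a vertical line. The 4 called genes are Uap1l1, Gnpda1, Hk3 and Cd33, and of the 14 exoglycosidase genes 13 lie right of 0.

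Of 20 sialyltransferases, the enzymes that attach sialic acid in the Golgi, 10 could be fitted. Calls numbered 0 by edgeR, 1 by DESeq2 and 0 by limma-voom, with 1 under 0.05 by unadjusted p, where all genes gave 10.0%, 2.01% and 22.0% by the last 3 rules. St3gal2 was the most counted, with 416 ± 36.7 CPM in S34F cells and 360.5 ± 5.11 CPM in WT cells (SD, n = 3 each), followed by St8sia4, which builds polysialic acid. St6galnac4 had 81.5, 47.7 and 64.4 CPM in S34F replicates 1 to 3, against 42.0, 35.5 and 34.4 CPM in WT replicates 1 to 3. Its groups did not overlap, and its log2 fold change of 0.79 ± 0.19 did not pass (SE, n = 3 each, by edgeR with adjusted p = 0.0711). It passed with no count filter, with DESeq2, with the replicate block, without S34F replicate 2 and without WT replicate 1, at adjusted p-values between 0.0045 and 0.045.

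Of the other sialidases, the plasma membrane enzyme gene Neu3 had 19.6 ± 3.63 CPM in S34F cells and 22.0 ± 1.59 CPM in WT cells (SD, n = 3 each), while Neu2 was counted at 0 and Neu4 at 2 counts in a single S34F library. Siae, which removes acetyl groups from sialic acid, had a log2 fold change of -0.45 ± 0.22 that did not pass (SE, n = 3 each, by edgeR with adjusted p = 0.279), except with the replicate block (adjusted p = 0.049). No gene of the list of 3 fitted members was called by edgeR, DESeq2 or limma-voom, and 0 had an unadjusted p under 0.05 (22.0% of all genes). Among 8 relatives of Slc35a1 that carry nucleotide sugars, edgeR called 0, and 1 had an unadjusted p under 0.05 (22.0% of all genes). DESeq2 called 0 (10.0%) and limma-voom 0 (2.01%). The smallest p there was that of the GDP-fucose transporter gene Slc35c1, whose log2 fold change was 0.40 ± 0.14 (SE, n = 3 each, by edgeR with adjusted p = 0.152).

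Among receptors for sialic acid 1 of 6 fitted genes rose by edgeR (1.58% of all genes). DESeq2 called 3 (10.0%) and limma-voom 2 (2.01%), and the median log2 fold change was 1.38. Cd33, a Siglec of myeloid cells, had 90.4, 152 and 62.6 CPM in S34F replicates 1 to 3, against 29.5, 20.6 and 20.8 CPM in WT replicates 1 to 3. All S34F libraries were higher, unevenly among themselves, and the log2 fold change was 2.11 ± 0.31 (SE, n = 3 each, by edgeR with adjusted p = 0.0211). It did not pass without S34F replicate 1, without WT replicate 2, without WT replicate 3, with both of these summed or with no count filter, with adjusted p-values between 0.0808 and 0.114.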

How the data were processed

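The values deposited by the authors are raw counts, whole numbers for each Ensembl gene and library, and columns were matched to samples by name. Reads went through HISAT2 and featureCounts on mm10, per the submitters' processing notes; versions, strand setting and the handling of multiply mapped reads were not given in the sources used here. Counts were tested in edgeR 4.0.16 (R 4.3.3) with TMM, filterByExpr, robust glmQLFit and glmQLFTest, two-sided, with Benjamini-Hochberg adjustment over 13444 genes at 0.05 and genotype as the only term. Standard errors were the log2 fold change over the root of F. Alternatives used DESeq2 1.42.0 and limma 3.58.1, among others. Lengths, coordinates and GC content came from GENCODE M21 (GRCm38), which held 54495 gene IDs. Oga was matched by a RefSeq synonym, and St6galnac2 has several IDs, of which the one with more counts was used. Promoters came from RefSeq. The members, lists, tests and alternatives were chosen with earlier results of these data known.

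Named genes were the 10 members, up to 3 called genes of each list or the one with the smallest p, and the 3 genes most like Neu1 and Renbp; others are named after their values were seen. On simulated data for the same 13444 genes, 200 of them altered, 115 calls were made and 6 were false. The share recovered was 14.3% at 1.5-fold, 60.6% at 2-fold and 89.6% at 4-fold. The simulated libraries were drawn independently, without the close pair of WT replicates 2 and 3. These shares therefore need not hold for the real libraries. Totals per library lay between 16509899 and 19129250 counts.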

Additional observations from a re-analysis of the deposited data

How the results depend on the processing

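Neu1 and Renbp were called under all 16 alternatives, and the other 6 fitted members under none. These fits reuse the libraries in which both genes had been called before the list was drawn up, so their calls are no separate evidence. None of the 21 named genes reversed direction. Of 336 values of these genes, 299 kept their side of the threshold, 26 lost their call and 11 gained one. The count of all genes called was 293, against 763 with no count filter, 1216 with DESeq2, 20 with WT replicates 2 and 3 summed and 159 with the GC trend removed. For the other sialic acid and aminosugar genes it was 4, against 7 with no count filter, 12 with DESeq2 and 2 with both WT libraries summed. With single libraries left out the counts ranged from 19 to 1177 over all genes and from 1 to 14 in the other pathway genes; the cause was not tested. Whether replicate numbers pair the libraries was not settled. Same-numbered libraries correlated at 0.332, 0.159 and 0.0719 in their deviations. S34F replicate 3 correlated slightly more, at 0.0801, with WT replicate 2, which stood close to WT replicate 3. The fit with the replicate block called 1418 genes, 14 of them other pathway genes. Relative to the reported scaling, the other scalings moved the median of all genes by at most 0.033 on the log2 scale. Small fold changes and genes under about 1 CPM, such as Nanp, are beyond what 3 libraries per group resolve at this spread and depth.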

Other observations

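Slc17a5, the lysosomal exporter of sialic acid, and Nagk, the kinase of N-acetylglucosamine, moved together across all 6 libraries, a pattern noticed after the values were seen. Counts of Slc17a5 over those of Nagk were 1.75, 1.68 and 1.75 in S34F replicates 1 to 3, against 1.71, 1.75 and 1.65 in WT replicates 1 to 3, while each gene on its own varied by 29.7% and 31.0% (coefficient of variation, n = 3) among the WT libraries. The exact 95% intervals for counting error of the 6 ratios all overlapped, the widest reaching from 1.40 to 2.11 in WT replicate 1. How many other pairs of genes hold so steady a ratio was not counted, so the pattern need not be particular to this pair.

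The paired receptors Pilra and Pilrb1, which bind sialylated glycoproteins, had large differences that did not pass by edgeR. DESeq2 called both, and limma-voom called Pilrb1. Pilrb1 had 14.5, 26.1 and 18.9 CPM in S34F replicates 1 to 3, against 9.0, 3.36 and 2.65 CPM in WT replicates 1 to 3 (log2 fold change 1.99 ± 0.44, SE, n = 3 per group, edgeR adjusted p = 0.0574). Pilra had 19.2, 18.8 and 3.17 CPM in S34F replicates 1 to 3, against 4.14, 1.06 and 0.865 CPM in WT replicates 1 to 3, and S34F replicate 3 lay below WT replicate 1. Siglece, an inhibitory Siglec of myeloid cells, did not pass the count filter and had 28, 34 and 3 counts in S34F replicates 1 to 3, against 3, 2 and 2 counts in WT replicates 1 to 3. The Pilr genes are close paralogues, and how the authors' counting divided shared reads is not stated.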
